A study of Mus musculus with 4 samples.

Results

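The genes described here encode the core of MHC antigen presentation, the display of peptides on the cell surface to T cells. A list of 10 symbols was matched to the gene names of the count tables, and all 10 were found among the 54920 genes listed. They are *B2m*, *H2-K1*, *H2-D1*, *Tap1* and *Nlrc5* of the class I pathway and *H2-Aa*, *H2-Ab1*, *H2-Eb1*, *Cd74* and *Ciita* of the class II pathway. The study asked what loss of *Cnot3*, a subunit of the CCR4-NOT complex that shortens mRNA poly(A) tails, does to spermatogonia. Bulk RNA-seq was done on ID4-EGFP+ cells sorted from mouse testes at postnatal day 8, where EGFP under *Id4* control marks undifferentiated spermatogonia including stem cells. There were 2 control and 2 *Cnot3*-cKO libraries. Controls were *Cnot3* flox/flox; *Id4-eGfp* males, called wild-type in the labels, and *Cnot3*-cKO males were *Cnot3* flox/flox; *Ddx4*-creER; *Id4-eGfp*. Both groups received 4-OHT from postnatal day 1 to day 3. *Ddx4*-creER is active in germ cells, so other testis cells are outside the reach of the deletion, and the controls carried no Cre. The study calls its replicates biological, but no source states whether the libraries of a group came from separate animals, and the study's replicate number is not the 2 libraries per group available here. The p-values measure the spread between these libraries.

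MHC class I molecules pair a heavy chain such as H2-K1 or H2-D1 with the light chain beta-2-microglobulin. They present peptides that the TAP transporter brings from the cytosol into the endoplasmic reticulum, and they are carried by most nucleated cells but are known to be low on male germ cells. MHC class II molecules are alpha and beta chain pairs that load peptides from endosomes with the help of the invariant chain CD74, and they belong mainly to macrophages, dendritic cells and B cells. The transactivator NLRC5 acts on class I promoters and CIITA on class II promoters, both through a shared promoter module of S, X and Y boxes bound by RFX, CREB and NF-Y factors.

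Reads assigned to genes numbered 40957899 and 43378493 in the controls against 22192964 and 28019626 in the *Cnot3*-cKO libraries, so depth was lower in both *Cnot3*-cKO libraries. Levels are given as CPM, counts per 1000000 reads of the TMM-scaled library total, and SE stands for standard error. A count of 3 reads was taken as the floor of detection, which covers counting error only and lay between 0.0713 and 0.132 CPM. Genes were compared with edgeR's quasi-likelihood test over 23952 genes that passed its expression filter. A call required both a fold change above 2 and a p under 0.01 after Benjamini-Hochberg adjustment. An exact two-sided permutation test of 2 libraries against 2 cannot give a p below 0.333, so each adjusted p rests on the dispersion fitted across genes.

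The deleted gene followed the labels. *Cnot3* (chr7:3645268-3661109, forward strand, GRCm38) had 2362 and 2114 reads in controls against 435 and 571 in *Cnot3*-cKO cells. Its level fell from 54.4 ± 5.94 CPM (SD, n = 2) to 19.6 ± 0.521 CPM (SD, n = 2), or -1.48 on the log2 scale (SE 0.13, adjusted p = 1.48e-05). The markers listed for germ cells were led by *Dazl*, and their summed level was 5447 and 5877 CPM in controls against 5237 and 5478 CPM in *Cnot3*-cKO cells. Of these 12 pan-germ cell genes, 0 were called higher, against 4.03% of all tested genes, and 1, *Nanos3*, was called lower (8.33%, against 0.735%). DESeq2 also called 0 higher and 1 lower. At an unadjusted p under 0.05, 1 was higher (8.33%, against 17.4% of all tested genes) and 4 were lower (33.3%, against 15.4%), and for 6 of the 12 both *Cnot3*-cKO libraries lay below both controls, against 6857 of all 23952 tested genes. *Dppa3*, with the lowest value of the list, had 47 and 43 reads in controls against 4 and 8 in *Cnot3*-cKO cells, at -2.22 on the log2 scale (adjusted p = 0.0227), and was not called.

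All 10 antigen presentation genes passed the expression filter. In *Cnot3*-cKO cells 3 of them rose, *B2m*, *H2-D1* and *Nlrc5*, against 965 of all 23952 tested genes (4.03%). None fell: edgeR and DESeq2 each called 0 lower, against 176 of all tested genes (0.735%) in edgeR. At an unadjusted p under 0.05, 7 of the 10 were higher and 0 lower, against 4164 (17.4%) higher and 3695 (15.4%) lower of all tested genes. The shares of all tested genes, 4.03% called higher, 0.735% called lower and these at the unadjusted limit, are the background for each list below. DESeq2 gave an adjusted p to 9 of the 10 genes, all but *H2-Ab1*, and to 18924 of the 23952 genes, so its counts cover fewer genes. For 8 of the 10, both controls lay below both *Cnot3*-cKO libraries, against 30.5% of all tested genes. The median log2 fold change was 1.20 over the 10 genes and 0.01 over all tested genes. All 3 called genes belong to the class I pathway. Because these are bulk libraries, more cells of a kind that carries these transcripts and more RNA per cell cannot be told apart.

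**Figure D1:**
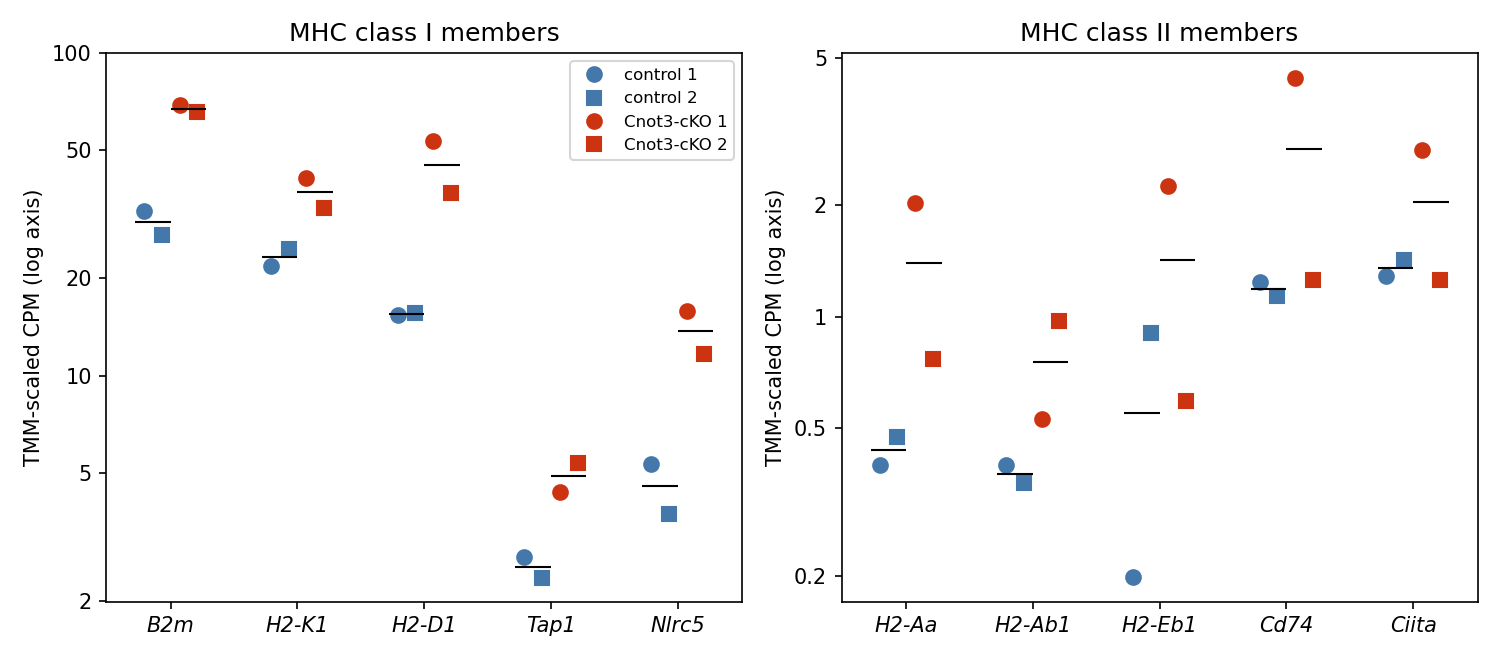
TMM-scaled CPM (log axis) of the class I genes (left) and the class II genes (right) in each of the 2 control (blue) and 2 *Cnot3*-cKO (red) libraries, with black lines at the group means. The groups are separate for all 5 class I genes, while among class II genes *H2-Eb1* and *Ciita* overlap and 1 *Cnot3*-cKO library often lies near the controls.

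*B2m* encodes beta-2-microglobulin, the light chain shared by all classical class I molecules (chr2:122147686-122153083, forward strand). It had 1304 and 1148 reads in controls and 1558 and 1882 in the shallower *Cnot3*-cKO libraries, or 32.4 and 27.3 CPM against 68.8 and 65.7 CPM. The replicates of each group were close, and the groups did not overlap. The rise was 2.25-fold between group means, with a fitted change of 1.17 on the log2 scale (SE 0.12, adjusted p = 4.59e-05).

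*H2-D1*, a classical heavy chain gene (chr17:35262730-35267499, forward strand), had 15.4 and 15.7 CPM in controls against 53.4 and 36.8 CPM in *Cnot3*-cKO cells. The controls were nearly equal and both *Cnot3*-cKO libraries were far above them, though they differed from each other. The fitted change was 1.54 on the log2 scale (SE 0.17, adjusted p = 7.90e-05). *H2-K1*, the other classical heavy chain gene (chr17:33996017-34000347, reverse strand), had 21.8 and 24.7 CPM in controls against 41.1 and 33.1 CPM. Its groups were also separate, but its fitted change of 0.67 on the log2 scale (SE 0.14, adjusted p = 0.00602) was under the fold limit, so it was not called. Leaving out 1 library, which leaves a group with a lone library that is assumed to vary like the other group, gave it an adjusted p from 4.71e-05 to 0.0846, the last without *Cnot3*-cKO replicate 1.

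The order of the heavy chains differed between the groups. *H2-K1* had 1.42 and 1.58 reads per *H2-D1* read in controls against 0.770 and 0.898 in *Cnot3*-cKO cells. The log2 ratio of *H2-D1* to *H2-K1* reads was 0.85 higher in *Cnot3*-cKO cells, with no overlap, and the exact two-sided permutation p was 0.333, the smallest that 4 libraries allow. Per kilobase of annotated exon, *H2-K1* was above *H2-D1* in both controls, with 7.43 and 8.40 against 5.96 and 6.07 CPM per kb. In *Cnot3*-cKO cells *H2-D1* had the higher level in each library, at a mean of 17.5 CPM per kb against 12.6 for *H2-K1*. Class I heavy chain genes are close copies of each other, and how the counting treated reads that match several of them is not stated, so the split between them is uncertain. The sum of *H2-K1* and *H2-D1*, which does not depend on how reads were divided between this pair, was 37.2 and 40.3 CPM in controls against 94.5 and 69.9 CPM in *Cnot3*-cKO cells, 2.12-fold higher.

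*Nlrc5* encodes the transactivator of class I genes (chr8:94434356-94527272, forward strand). It had 215 and 157 reads in controls against 359 and 335 in *Cnot3*-cKO cells, or 5.34 and 3.73 CPM against 15.8 and 11.7 CPM. Its fitted change of 1.60 on the log2 scale (SE 0.24, adjusted p = 6.20e-04) was the largest of the called genes among the 10. Its exons share 78 bases with *9330175E14Rik* on the other strand. *Tap1*, a subunit of the peptide transporter (chr17:34187553-34197225, forward strand), had 2.73 and 2.35 CPM in controls against 4.37 and 5.38 CPM in *Cnot3*-cKO cells. Its groups were separate, but its fitted change of 0.94 on the log2 scale (SE 0.27, adjusted p = 0.0275) passed neither limit. The first exon of *Tap1* shares 212 bases with an exon of *Psmb9* on the other strand, and strand use in the counting is not stated.

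*B2m*, *H2-D1* and *Nlrc5* were called with each of the 4 libraries left out in turn, but each such fit takes its spread from the 2 libraries of the other group, so these calls are no measure of stability. Leaving out 1 library moved *B2m* between 1.04 and 1.29, *H2-D1* between 1.24 and 1.78 and *Nlrc5* between 1.35 and 1.86 on the log2 scale. A stricter question, whether the fold change itself exceeded 2 (edgeR's glmTreat), called 0 of the 10 genes.

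**Figure D2:**
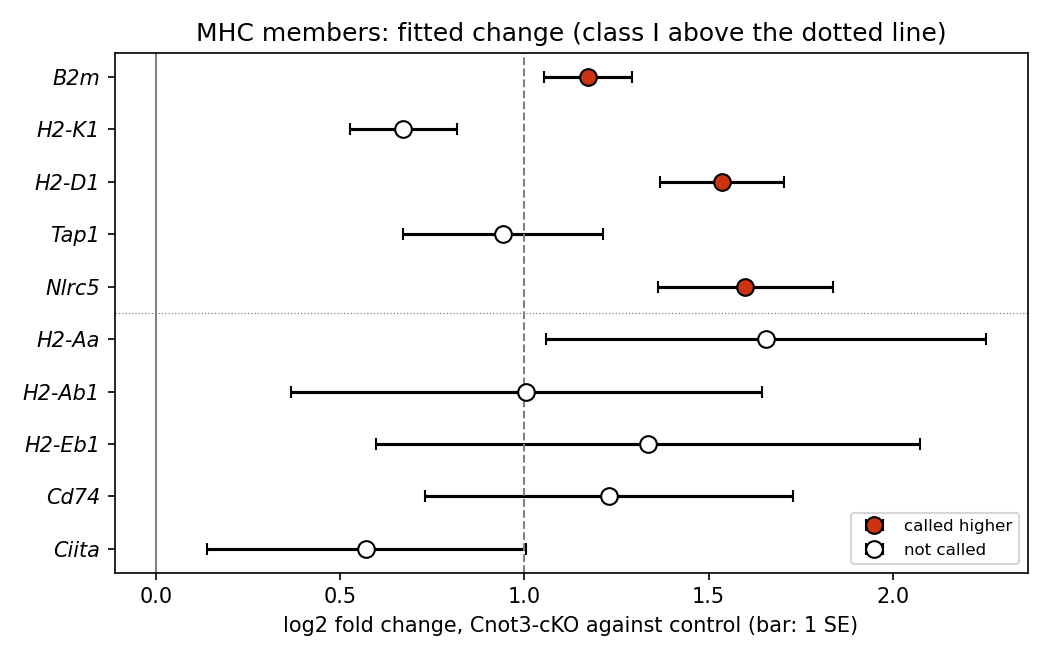
Fitted log2 fold change of each antigen presentation gene, *Cnot3*-cKO against control, with bars of 1 standard error; filled points were called higher, and the dashed line marks a fold change of 2. Class II genes have longer bars (0.43 to 0.74 on the log2 scale) than class I genes (0.12 to 0.27).

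The class II chain genes had few reads. The alpha chain gene *H2-Aa* (chr17:34282744-34287823, reverse strand) had 16 and 20 reads in controls against 46 and 22 in *Cnot3*-cKO cells. The beta chain gene *H2-Ab1* (chr17:34257689-34269419, forward strand), which pairs with it, had 16 and 15 reads against 12 and 28. The beta chain gene *H2-Eb1* (chr17:34305867-34316674, forward strand) had 8 and 38 reads against 51 and 17. Scaled for depth, *H2-Aa* and *H2-Ab1* were higher in both *Cnot3*-cKO libraries, while *H2-Eb1* overlapped, since control replicate 2 at 0.903 CPM exceeded *Cnot3*-cKO replicate 2 at 0.594 CPM. The log2 fold changes were 1.66 for *H2-Aa* (SE 0.60, adjusted p = 0.0696), 1.01 for *H2-Ab1* (SE 0.64, adjusted p = 0.313) and 1.34 for *H2-Eb1* (SE 0.74, adjusted p = 0.239).

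*Cd74*, the invariant chain that guides class II molecules to endosomes, had 1.24 and 1.14 CPM in controls against 4.41 and 1.26 CPM in *Cnot3*-cKO cells. The second *Cnot3*-cKO library was barely above the controls, and without an expression filter or with libraries thinned to equal depth it overlapped them. The fitted change was 1.23 on the log2 scale (SE 0.50, adjusted p = 0.105). Its exons share 12 bases with *Mir5107* on the same strand. *Ciita*, the class II transactivator (chr16:10480059-10528418, forward strand), had 1.29 and 1.43 CPM against 2.82 and 1.26 CPM. Its groups overlapped, with a fitted change of 0.57 on the log2 scale (SE 0.43, adjusted p = 0.408). An exon of *Dexi* on the other strand covers 329 bases of *Ciita* exons.

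Of the 5 class II genes, edgeR called 0 in either direction, DESeq2 called 0 of the 4 to which it gave an adjusted p, and 2 were higher at an unadjusted p under 0.05. *H2-Aa*, *H2-Eb1*, *Cd74* and *Ciita* were highest in *Cnot3*-cKO replicate 1, and *H2-Ab1* in replicate 2. Replicate 1 carried much of the difference of the first 4. Without *Cnot3*-cKO replicate 1 the log2 fold changes were 0.80 for *H2-Aa*, 0.09 for *H2-Eb1*, 0.07 for *Cd74* and -0.12 for *Ciita*, and none of these was called. Without *Cnot3*-cKO replicate 2 they were 2.20, 2.01, 1.88 and 1.05, and *H2-Aa*, *H2-Eb1* and *Cd74* were called higher. Leaving out control replicate 2 instead gave 2.79 for *H2-Eb1*, and leaving out control replicate 1 gave 0.62, with neither called. Whether class I and class II genes differed in their response was not tested.

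Reads of *B2m*, *H2-K1* and *H2-D1* outnumbered those of *H2-Aa*, *H2-Ab1*, *H2-Eb1* and *Cd74* by 31.1 and 23.5 to 1 in controls and by 17.7 and 37.7 to 1 in *Cnot3*-cKO cells. The *Cnot3*-cKO libraries gave both the lowest and the highest ratio. Per kilobase of exon, *B2m* led in every library, at a group mean of 34.7 CPM per kb in controls and 78.2 in *Cnot3*-cKO cells. The heavy chains came next, and no other gene of the 10 reached 1 CPM per kb in controls. In controls *Cd74* followed at 0.709 CPM per kb, above *Nlrc5* at 0.534 and *Tap1* at 0.464. *Nlrc5* and *Tap1* overlapped between control libraries, and *H2-Eb1* at 0.283 overlapped both of them as well as *H2-Ab1* (0.147), *Ciita* (0.142) and *H2-Aa* (0.115). In *Cnot3*-cKO cells *Cd74* at 1.69 and *Nlrc5* at 1.62 CPM per kb overlapped, and *Ciita* at 0.214 was the lowest mean.

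Promoter sequence is shown because these genes are known to share the X and Y boxes and because several of them moved together. RefSeq windows from 250 bases before to 50 after the start (GRCm38.p6) were used for 6 of the 10 genes: *B2m*, *H2-K1*, *H2-D1*, *Tap1*, *H2-Aa* and *H2-Eb1*. *Nlrc5*, *H2-Ab1* and *Ciita* had no entry, and *Cd74* was not used. Capitals mark matches, on either strand, to the Y box CCAAT, the X2 box core TGACG, the NF-kB site GGGATTCCC, the class I interferon consensus TTTCACTTC and the interferon response element GAAANNGAA. Stretches read 5′ to 3′ on the strand of the gene and end at or just before its start, outside annotated exons. The H2-D1 window lies in an exon of a longer annotated transcript, so pieces of 30 bases around its NF-kB and X2 matches are given.
B2m, chr2:122147537-122147685, forward strand: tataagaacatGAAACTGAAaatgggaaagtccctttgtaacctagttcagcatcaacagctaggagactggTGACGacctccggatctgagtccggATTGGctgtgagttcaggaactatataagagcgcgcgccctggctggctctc
H2-K1, chr17:34000348-34000497, reverse strand: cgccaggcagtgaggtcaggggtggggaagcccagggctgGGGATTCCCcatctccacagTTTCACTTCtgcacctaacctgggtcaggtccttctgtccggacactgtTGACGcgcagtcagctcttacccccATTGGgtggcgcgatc
H2-D1, NF-kB piece, chr17:35262913-35262942, forward strand: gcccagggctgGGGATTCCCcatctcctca
H2-D1, X2 piece, chr17:35262980-35263009, forward strand: gccgggacactgaTGACGcgctggcaggtc
H2-Aa, chr17:34287824-34287973, reverse strand: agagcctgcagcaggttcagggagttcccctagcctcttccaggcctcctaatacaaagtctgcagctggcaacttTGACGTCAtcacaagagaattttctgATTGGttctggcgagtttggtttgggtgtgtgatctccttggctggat
H2-Eb1, chr17:34305721-34305866, forward strand: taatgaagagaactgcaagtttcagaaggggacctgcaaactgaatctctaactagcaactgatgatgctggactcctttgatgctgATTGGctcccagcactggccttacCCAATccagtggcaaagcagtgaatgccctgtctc

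The Y box letters were in 6 of 6 windows and in 37.4% of all 32851 windows in the table. The X2 core was in 5 of 6, all but *H2-Eb1*, and in 20.8% of all windows. In *B2m* the X2 match began 78 bases before the start and the Y box match 53, and in *H2-Aa* these distances were 74 and 48. In *H2-Aa* the X2 letters occurred on both strands, and these matches overlap each other. In *H2-K1*, counted from the more upstream of its annotated starts, the X2 match began 41 and the nearest upstream Y box 16 bases before the start. *Tap1*, whose stretch is not shown, had its Y box match 222 and its X2 match 86 bases before the start. That order is the reverse of the order in *B2m*, *H2-Aa* and *H2-K1*. *H2-K1* and *H2-D1* alone of the 6 held the NF-kB site (0.353% of all windows) and the class I interferon consensus (0.505%), and *B2m* alone held the interferon response element (8.56%). A match describes letters in a window and not the binding of a factor.

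Of the factors that bind the shared promoter module, *Rfx5*, *Rfxap*, *Rfxank*, *Nfya*, *Nfyb*, *Nfyc* and *Creb1*, all 7 were tested and edgeR and DESeq2 each called 0 in either direction. At an unadjusted p under 0.05, 3 were lower and 0 higher. Their median log2 fold change was -0.20, from -0.39 for *Nfya* and *Rfxap* to 0.06 for *Rfx5*. *Creb1*, the most abundant, had 120 and 118 CPM in controls against 105 and 103 CPM in *Cnot3*-cKO cells.

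Of 12 peptide loading genes of the class I pathway other than *Tap1*, all tested, edgeR and DESeq2 called 0 in either direction, with 4 higher (33.3%) and 1 lower (8.33%) at an unadjusted p under 0.05, and the median log2 fold change was 0.10. With 1 library left out the median lay between 0.02 and 0.20. In edgeR 1 was called higher without control replicate 1 and without *Cnot3*-cKO replicate 2, and also without an expression filter, with an adjusted p under 0.05, with no fold change limit and with a replicate block. The immunoproteasome subunit *Psmb8* had the largest value, at 28 and 25 reads in controls against 75 and 38 in *Cnot3*-cKO cells (log2 fold change 1.83, SE 0.50, adjusted p = 0.0213). The disulfide isomerase *Pdia3* had the smallest, -0.40 (SE 0.08, adjusted p = 0.00305), and was the 1 lower gene at the unadjusted limit. Besides *Psmb8*, the genes higher at that limit were *Tap2*, *Psmb9* and *Erap1*. Their log2 fold changes were 1.02 for *Tap2* (adjusted p = 0.107), 0.88 for *Psmb9* (adjusted p = 0.0446) and 0.41 for *Erap1* (adjusted p = 0.00482). *Canx*, the gene for the chaperone calnexin, had 455 and 487 CPM against 503 and 491 CPM. It was the most abundant of the list in *Cnot3*-cKO cells, while *Pdia3* was in controls, at 544 and 547 CPM.

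Non-classical and class I-like heavy chain genes rose in part. Of 19, 15 were tested, and 5 were called higher (33.3%) and 0 lower, and the median log2 fold change of the list was 0.87. DESeq2 also called 0 lower, and 8 were higher and 0 lower at an unadjusted p under 0.05. *H2-T23*, which encodes the Qa-1 chain, went from 1.71 and 1.07 to 6.31 and 3.11 CPM (log2 fold change 1.75, SE 0.39, adjusted p = 0.00692). *Mr1*, which presents microbial metabolites, went from 3.43 and 2.85 to 6.97 and 9.64 CPM (log2 fold change 1.41, adjusted p = 0.00203). *Fcgrt*, the neonatal Fc receptor, went from 9.58 and 6.44 to 17.1 and 16.4 CPM (log2 fold change 1.07, adjusted p = 0.00336). It had the highest mean of the list in *Cnot3*-cKO cells, while in controls *H2-Q2*, which was not called, did, at 11.2 CPM. The iron regulator *Hfe* (1.56) and *H2-Q10* (1.58) were the other called genes, and *H2-Q6* had the smallest value, -0.33. The products of these genes pair with beta-2-microglobulin, as the classical chains do. Leaving out 1 library gave 4 or 5 called genes and a list median from 0.52 to 0.92, the lowest without *Cnot3*-cKO replicate 1, where *H2-T23* was not called (log2 fold change 1.15, adjusted p = 0.0504). *H2-T23* was also not called with upper quartile scaling. *H2-Q10* was not called without control replicate 1, without *Cnot3*-cKO replicate 2 or with thinned libraries, and *Fcgrt* was not called without control replicate 2. The test against a fold change of 2 called 0 of the list. *H2-T* and *H2-Q* genes share the uncertainty over reads that match several copies.

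Further class II genes, which edit, cut or costimulate, included called ones. Of 13, 10 were tested, 4 were called higher (40%) and 0 lower, and the median log2 fold change was 1.27. DESeq2 called 3 of the 6 with an adjusted p higher and 0 lower, and 7 were higher and 0 lower at an unadjusted p under 0.05. The invariant chain protease gene *Ctss* went from 15.8 and 9.36 to 44.4 and 38.7 CPM (log2 fold change 1.73, SE 0.21, adjusted p = 1.35e-04). The costimulators *Cd80* (1.52) and *Cd86* (1.19) also rose. *H2-Oa*, a chain of the H2-O regulator of peptide editing, had 3 and 0 reads in controls against 22 and 23 in *Cnot3*-cKO cells, a pooled ratio of 24.1 with an exact 95% counting interval from 7.73 to 121. Its partner *H2-Ob* had 0 reads in both controls and 4 and 6 in *Cnot3*-cKO cells, and was not tested. *Lgmn*, an endosomal protease gene and the most abundant of the list, had a log2 fold change of 0.45 (adjusted p = 0.00624) and was not called, and *H2-DMa* had the smallest value, 0.26. Without control replicate 2, 2 of the list were called, with *H2-Oa* and *Cd80* no longer among them, and without *Cnot3*-cKO replicate 1 also 2, with *Cd80* and *Cd86* no longer among them. *H2-Oa* was not called with upper quartile scaling and had no adjusted p in DESeq2, and the test against a fold change of 2 called 0 of the list. *H2-Ea-ps*, the name under which the E alpha chain locus is listed, had 0 reads in all 4 libraries.

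Interferon gamma is the classical inducer of both pathways. *Ifng* itself had 0 reads in all 4 libraries. Of 16 genes for the cytokine, its receptor, its signalling chain and its targets, 14 were tested, and 1 was called higher (7.14%, against 4.03% of all tested genes) and 0 lower. DESeq2 also called 0 lower, and 5 were higher (35.7%) and 1 lower (7.14%) at an unadjusted p under 0.05. The median log2 fold change was 0.19. Without *Cnot3*-cKO replicate 2 the median was 0.38 and 3 were called, 2 were called without control replicate 1, and the lowest median with a library left out was 0.14. The test against a fold change of 2 called 0. The called gene was the guanylate-binding protein gene *Gbp3*, from 17.3 and 15.1 to 51.8 and 44.2 CPM (log2 fold change 1.56, SE 0.14, adjusted p = 1.65e-05). *Irf8* had the smallest value, -0.45 (adjusted p = 0.104), and *Jak1*, the most abundant, had 0.11. The transcription factor gene *Irf1* had -0.12 (adjusted p = 0.436).

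**Figure D3:**
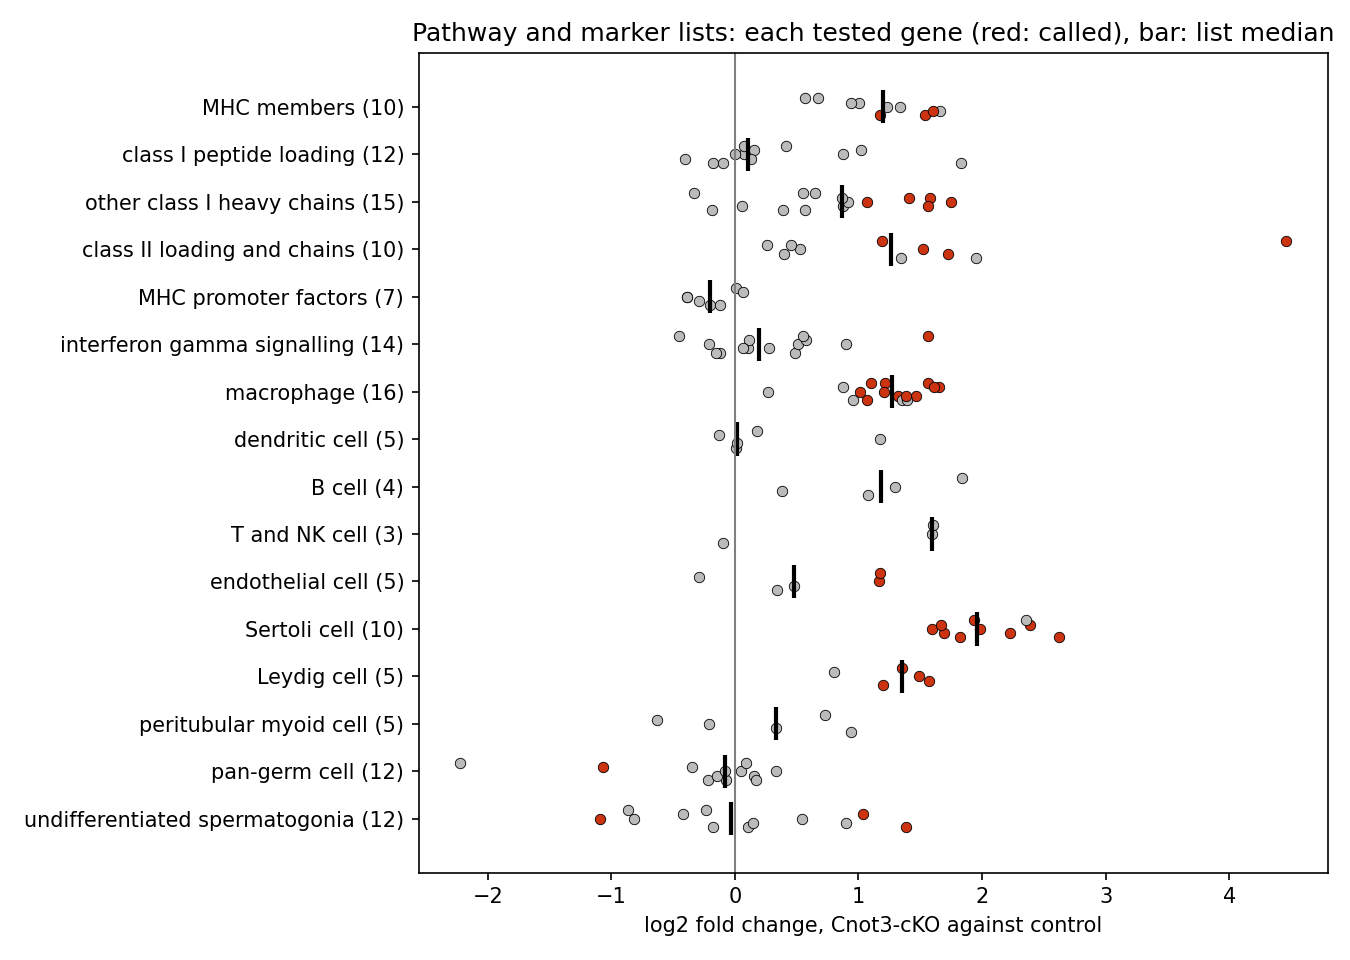
Log2 fold change, *Cnot3*-cKO against control, of each tested gene of the pathway and marker lists (number tested in parentheses), with called genes in red and a black bar at each list's median. The antigen presentation genes, other class I heavy chains, the class II list and the macrophage, Sertoli and Leydig markers lie mostly to the right, while class I peptide loading, promoter factors, interferon gamma signalling and pan-germ cell genes lie mostly around 0.

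Markers of cells other than germ cells moved with these genes, although the cells had been sorted for EGFP. Of 16 macrophage markers, all tested, 11 were called higher (68.8%) and 0 lower, and the list median was 1.27. DESeq2 called 9 higher and 0 lower, and 14 were higher and 0 lower at an unadjusted p under 0.05. Leaving out 1 library gave 5 to 13 called, the 5 without control replicate 2, where the list median was 0.94. Robust dispersions gave 7, with *Mrc1* not called (adjusted p = 0.132), and the test against a fold change of 2 gave 0. Their summed level was 329 and 207 CPM in controls against 718 and 587 CPM in *Cnot3*-cKO cells, 2.43-fold higher, against 2.22-fold for the 5 class I genes and 2.16-fold for the 5 class II genes. *Mrc1* was the most abundant, and no marker of the list was at 0 in any library. The pan-leukocyte marker *Ptprc*, itself on this list and called higher, had 7.67 and 3.90 CPM in controls against 19.2 and 16.1 CPM in *Cnot3*-cKO cells. The part of these cells in the changes of the antigen presentation genes was not tested.

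Set against macrophage marker reads, class I reads showed no separation of the groups, but set against reads of *Ptprc* alone, which is among those markers, they did. *B2m*, *H2-K1* and *H2-D1* together had 0.211 and 0.327 reads per macrophage marker read in controls against 0.227 and 0.231 in *Cnot3*-cKO cells, so the *Cnot3*-cKO ratios lay between those of the controls. Per *Ptprc* read they had 9.07 and 17.3 in controls against 8.52 and 8.41, so both *Cnot3*-cKO ratios lay below both controls. The controls differed in macrophage markers, with 329 against 207 CPM, while their summed class I level was 77.6 and 73.7 CPM. *H2-Aa*, *H2-Ab1*, *H2-Eb1* and *Cd74* together had 0.00678 and 0.0139 reads per macrophage marker read in controls against 0.0129 and 0.00613 in *Cnot3*-cKO cells. Among class II genes *Cnot3*-cKO replicate 1 stood apart, at 12.1 CPM summed over the 5 class II genes, against 4.85 CPM in replicate 2 and 3.53 and 4.30 CPM in controls.

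**Figure D4:**
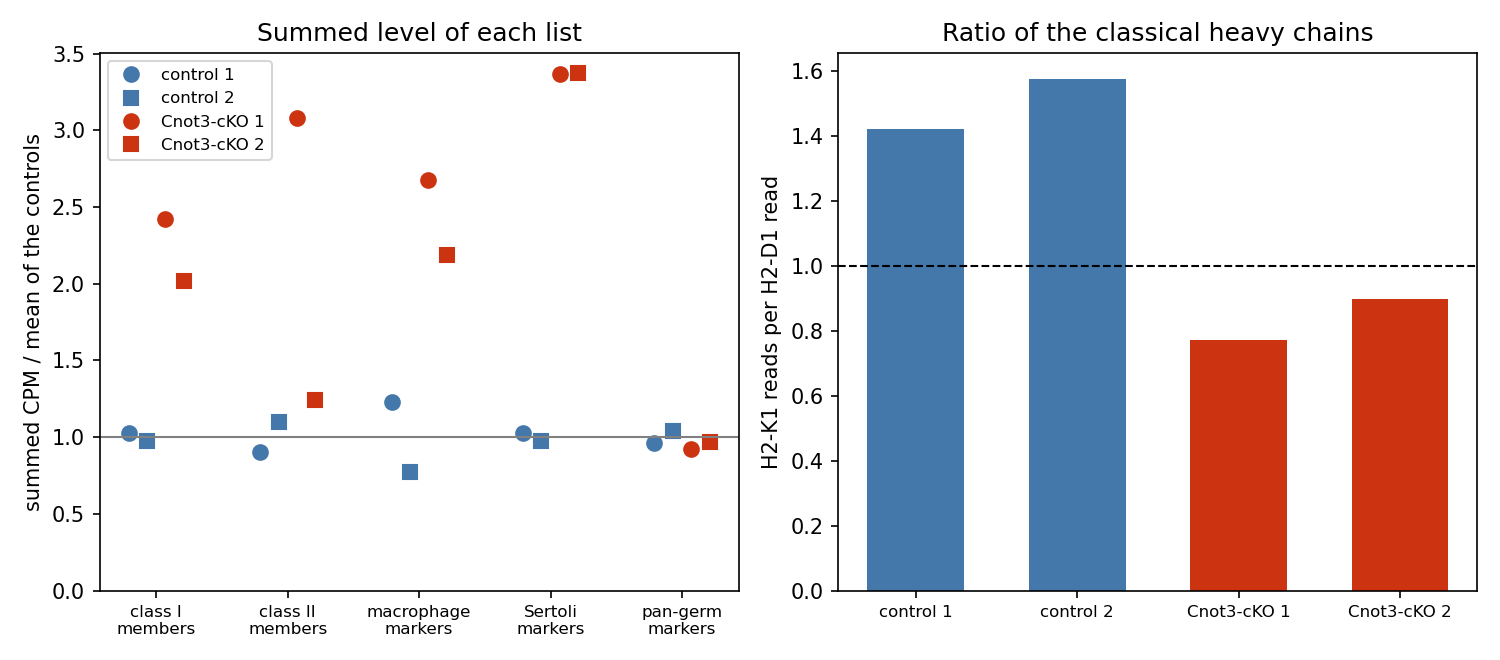
Left, the summed CPM of each list in each library, divided by the mean of the controls; right, the number of *H2-K1* reads per *H2-D1* read, with a dashed line at 1. The *Cnot3*-cKO libraries (red) are above the controls (blue) for class I genes, class II genes and macrophage and Sertoli markers. For class II genes *Cnot3*-cKO replicate 2, at 4.85 CPM, is close to control replicate 2, at 4.30 CPM. The heavy chain ratio is 1.42 and 1.58 in controls against 0.770 and 0.898 in *Cnot3*-cKO cells.

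Of 8 dendritic cell markers 5 were tested, edgeR called 0 in either direction and DESeq2 0 of the 4 with an adjusted p, with 1 higher and 0 lower at an unadjusted p under 0.05, and the median log2 fold change was 0.02. Their summed level, 54.3 and 45.9 CPM in controls against 49.5 and 48.5 CPM, was mostly *Zbtb46*. The dendritic median lay between -0.11 and 0.33 with 1 library left out, and without an expression filter it was 0.34. In this list 1 was called higher without *Cnot3*-cKO replicate 2, without an expression filter, with an adjusted p under 0.05, with thinned libraries and with a replicate block. Of 6 B cell markers 4 were tested and 0 called by either tool (1 had an adjusted p in DESeq2), with 2 higher and 0 lower at an unadjusted p under 0.05. The B cell sum was 1.54 and 1.83 CPM against 3.53 and 3.56 CPM. *Cd79a* had the highest mean in controls and *Cd79b* in *Cnot3*-cKO cells. Of 8 T and NK cell markers 3 were tested and 0 called by either tool (2 had an adjusted p in DESeq2), with 1 higher and 0 lower at an unadjusted p under 0.05. Their sum was 3.67 and 2.59 CPM against 8.92 and 4.85 CPM. *Cd4* led in each library but control replicate 2, where *Cd3e* was higher, at 1.12 against 1.05 CPM. *Cd3d* had 0 reads in 3 of the 4 libraries. *Cd3e* had -0.10 on the log2 scale, and *Cd8a*, not tested, had 4 and 14 reads in controls against 0 and 2. The T and NK median was 1.60, and 0.02 without *Cnot3*-cKO replicate 2. With an adjusted p under 0.05, 1 B cell marker was called higher. In the T and NK list 1 was called higher at that limit, without control replicate 1, without *Cnot3*-cKO replicate 2, without an expression filter and with a replicate block. *Cd4*, like *Cd74*, was highest in *Cnot3*-cKO replicate 1, with 90 and 44 reads in controls against 178 and 62 in *Cnot3*-cKO cells.

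Somatic cells of the tubule and interstitium were also represented, and class I molecules are carried by such cells too. Of 10 Sertoli cell markers 9 were called higher (90%) and 0 lower (median log2 fold change 1.96), and their summed level was 214 and 203 CPM in controls against 701 and 702 CPM in *Cnot3*-cKO cells, led by *Clu*. Of 6 Leydig cell markers 5 were tested and 4 (80%) called higher (median 1.35), with sums of 368 and 322 CPM against 831 and 896 CPM, led by *Hsd3b1*, and *Insl3* had 0 reads in all 4 libraries. Of 6 endothelial markers 5 were tested and 2 (40%), *Pecam1* and *Kdr*, called higher (median 0.48), with sums of 23.6 and 21.5 CPM against 35.4 and 40.6 CPM, led by *Tek*. Of 5 peritubular myoid markers, all tested, edgeR called 0 and DESeq2 0 of the 3 with an adjusted p, with 1 higher and 0 lower at an unadjusted p under 0.05 (median 0.33). Their sums were 13.6 and 16.2 CPM against 19.95 and 24.9 CPM, led by *Myh11* in controls and by *Acta2* in *Cnot3*-cKO cells. For the Sertoli, Leydig and endothelial lists edgeR and DESeq2 each called 0 lower. At an unadjusted p under 0.05, 10 Sertoli, 5 Leydig and 3 endothelial markers were higher and 0 lower. The endothelial median lay between 0.34 and 1.08 with 1 library left out, with 1 called without *Cnot3*-cKO replicate 1, and the myoid median between 0.16 and 0.70. In the myoid list 1 was called higher without *Cnot3*-cKO replicate 1, with no fold change limit, with thinned libraries, with library size only and with pan-germ cell scaling. The test against a fold change of 2 called 6 Sertoli and 0 Leydig and endothelial markers higher. The sum of the Sertoli cell markers was nearly equal in both *Cnot3*-cKO libraries, and most of it was *Clu*, at 479 CPM in each. The part of these cells in the result was not tested. Of 12 genes of undifferentiated spermatogonia, 2, *Id4* and *Eomes*, were called higher and 1, *Lin28a*, lower (median -0.03). *Lin28a* had the highest mean in controls, at 415 CPM, and *Ret* in *Cnot3*-cKO cells, at 236 CPM. *Zbtb16* came next in each group, at 400 and 227 CPM. The 12 genes had sums of 1906 and 1749 CPM against 1428 and 1448 CPM. At an unadjusted p under 0.05, 4 were higher and 4 lower. Without *Cnot3*-cKO replicate 2, 0 of them were called higher.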

How the data were processed

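Reads whose mean Phred quality reached 20 had been mapped by the authors with STAR (mm10) and assigned by featureCounts to genes of GENCODE M24; they deposited whole-number read counts per gene and library that had not been normalized. The libraries were made with a stranded kit (TruSeq Stranded Total RNA). The strand and multi-mapping options of the counting and the pooling of animals are not given in the sources used here.

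The 10 genes and the lists were chosen with earlier results of these data known. Named are *Cnot3*, the 10 genes and, from each list, the most abundant gene or genes. Some of the extreme and called genes of the lists are also named, but not all of them. *Irf1*, *Ptprc*, *Cd3e*, *Cd8a*, *Tap2*, *Psmb9* and *Erap1* were chosen after their values were seen. *H2-Ea* was matched as *H2-Ea-ps*. The fit was made with edgeR 4.0.16 (R 4.3.3), TMM factors, filterByExpr, no covariates and the quasi-likelihood F test, adjusted over all 23952 tested genes. DESeq2 1.42.0 was an alternative, and its adjusted p of NA stayed NA. Other scalings, filters, thresholds, thinning, a replicate block and leaving out each library were also run. Exon lengths and positions came from GENCODE M21 (GRCm38, also called mm10), and promoters from RefSeq (GRCm38.p6), with motifs chosen after the windows had been seen. The procedure was tested on simulated data. Figures were drawn with matplotlib 3.10.9 under Python 3.11.15. Some genes of the lists are not reported here by name.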

Additional observations from a re-analysis of the deposited data

How the results depend on the processing

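Over 17 alternatives, 166 of 167 values of the 10 genes kept their direction, and 159 kept both their direction and their side of the thresholds. Several alternatives changed only the test, the dispersions or a threshold and left the fold change as it was, so direction could not change there. Most of the 159 values belong to genes that were not called in the main fit and stayed uncalled. These counts are therefore no measure of stability. *H2-Ab1*, without an adjusted p in DESeq2, was counted as kept there. The exception in direction was *Ciita*, at -0.12 without *Cnot3*-cKO replicate 1 and up to 1.05 with another library left out. *B2m*, *H2-D1* and *Nlrc5* were called under all alternatives but the test against a fold change of 2, which called 0 of the 10, 87 genes higher and 5 lower in all, and did not call *Cnot3* (-1.48, adjusted p above the limit). An adjusted p under 0.05 gave 1452 genes higher and 284 lower, and no fold change limit 1488 and 1125, which adds *H2-K1* to the called genes. No expression filter gave 1250 higher and 285 lower over 39712 tested genes. Leaving out 1 library, with the lone library assumed to vary like the other group, gave 943 to 1225 genes higher, 217 to 271 lower and 3 to 6 of the 10 genes higher, the 6 without *Cnot3*-cKO replicate 2. The cause was not tested. No scaling moved the median of all genes by over 0.1 on the log2 scale. *Cd74* no longer separated the groups without an expression filter or with libraries thinned to 22192964 reads. A mean count of at least 50 left 7 of the 10 genes. With a replicate block 1155 genes were called higher and 217 lower, and 3 of the 10 higher. Deviations of same-numbered libraries from their group means correlated at 0.0478 across 18050 genes. With 2 libraries per group this cannot tell whether same-numbered libraries shared a source or a batch. *H2-Aa*, *H2-Ab1* and *H2-Eb1* had 8 to 51 reads per library.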
